A study of Drosophila melanogaster with 17 samples.

Results

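The mitochondrial ATP synthase (complex V) was followed through 10 of its nuclear-encoded subunit genes in the larval fat body of Drosophila melanogaster, out of 14659 genes in the deposited matrix. The 10 genes are picked out by their CG numbers, without a threshold on measured values. They are blw (CG3612, subunit alpha), ATPsyn-beta (CG11154, beta), ATPsyn-gamma (CG7610, gamma), sun (CG9032, epsilon), CG1746 (subunit c, now ATPsynC), ATPsynG (CG6105, subunit g, current symbol), Oscp (CG4307), ATPsyn-b (CG8189, subunit b), ATPsyn-d (CG6030, subunit d) and ATPsyn-Cf6 (CG4412, subunit F6). All 10 were found in the matrix, all 10 were above 0 in every library, and all 10 passed the minimum of a mean of 1 FPKM over the 17 libraries that 2383 genes met.

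Messenger RNA of the fat body was sequenced from female larvae of the last instar that had begun to wander. High sugar food held 0.7 M sucrose and control food 0.15 M, from hatching to harvest. Knockdown larvae carried UAS-ChREBPi(52606), an RNA interference construct against the sugar-sensing factor ChREBP (Mondo or Mio in flies), together with the driver cgGAL4 and UAS-Dcr2, which raises Dicer-2. Wild-type larvae were of the VDRC w1118 stock with the same cgGAL4 and UAS-Dcr2, so driver and Dicer-2 were common to all groups. There were 2 knockdown libraries on high sugar, 6 wild-type libraries on high sugar, 3 knockdown libraries on control food and 6 wild-type libraries on control food. The driver is active in fat body and is known to be active in hemocytes too, and a single RNA interference line was used. The labels call the libraries biological replicates without naming separate cultures or pools of animals, so p-values measure the spread between these libraries. Fewer cells of a type and less RNA per cell cannot be told apart in such whole-tissue samples.

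ATP synthase lets protons flow back across the inner mitochondrial membrane and uses that flow to make ATP. A ring of c subunits in the membrane (Fo) turns the central stalk (gamma, delta, epsilon), which drives conformational changes in the catalytic head of alternating alpha and beta subunits (F1). A peripheral stalk of OSCP, b, d and F6 holds the head still, and small membrane subunits such as e and g join complexes into dimers that shape the cristae. In the fly fat body, the organ that combines the storage work of liver and adipose tissue, mitochondria also feed the precursors from which sugar is turned into fat.

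Libraries also differed in barcode set, in slope with transcript length and in marker content. The steepest slopes and the lowest fat body marker share were those of the knockdown libraries on high sugar, so they cannot be separated from that group. Per the labels, 1 barcode served replicates 1 to 3 of a group (called shared-barcode libraries, among them every knockdown library), whereas wild-type replicates 4 to 6 were each given their own (own-barcode libraries). The barcode set entered the model as a term, estimated from wild type alone. Values fell with transcript length in each library, with slopes of -0.869 and -0.895 (log2 value per doubling of length, 2298 genes) in the knockdown libraries on high sugar, -0.333 to -0.538 in the other shared-barcode libraries and -0.046 to -0.234 in the own-barcode libraries. The target gene dmondo (CG18362) was listed at 0.286 and 0.187 FPKM in the knockdown on high sugar, against 2.03 to 3.01 FPKM in wild type, and at 0.31 to 0.535 FPKM in the knockdown on control food, against 1.1 to 1.83 FPKM in wild type. Fat body markers made up 4.23% and 4.38% of all FPKM in the knockdown libraries on high sugar and 14.4% to 26.8% in the other 15. Values are taken as FPKM, an abundance per length of transcript. Read depth is unknown, so no counting interval is given. The values of a library sum to 29778.6 to 62263.5, less than such values usually do. Some other scaling by the submitters is therefore possible, and levels are best read against each other.

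By level, subunit c and subunit beta stood above the other 8 genes over the 17 libraries. Subunit c (CG1746) averaged 22.5 ± 8.57 FPKM (SD, n = 17) and ATPsyn-beta 17 ± 8.12 FPKM, followed by ATPsyn-Cf6 at 9.2 ± 2.62 FPKM. The middle of the order was close together, with ATPsynG at 7.47 ± 5.78 FPKM, sun at 6.4 ± 5.53, ATPsyn-d at 5.93 ± 1.79, blw at 5.16 ± 1.65 and Oscp at 5.12 ± 2.09. The lowest were ATPsyn-gamma at 3.45 ± 1.58 FPKM and ATPsyn-b at 2.87 ± 2.99 FPKM. Each gene differed from the next in this order by less than the larger of their SDs. Among the 2383 tested genes the means ranged from the 51.6th percentile for ATPsyn-b to the 90.3rd for CG1746, so the genes for 1 enzyme were spread over the upper part of the range. Subunit c was first in 3 of the 4 groups, and in the knockdown on high sugar sun was first at 17.4 ± 4.56 FPKM (n = 2), ahead of CG1746 at 13 ± 1.44 FPKM, with blw last at 4.05 ± 1.39 FPKM.

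**Figure D1:**
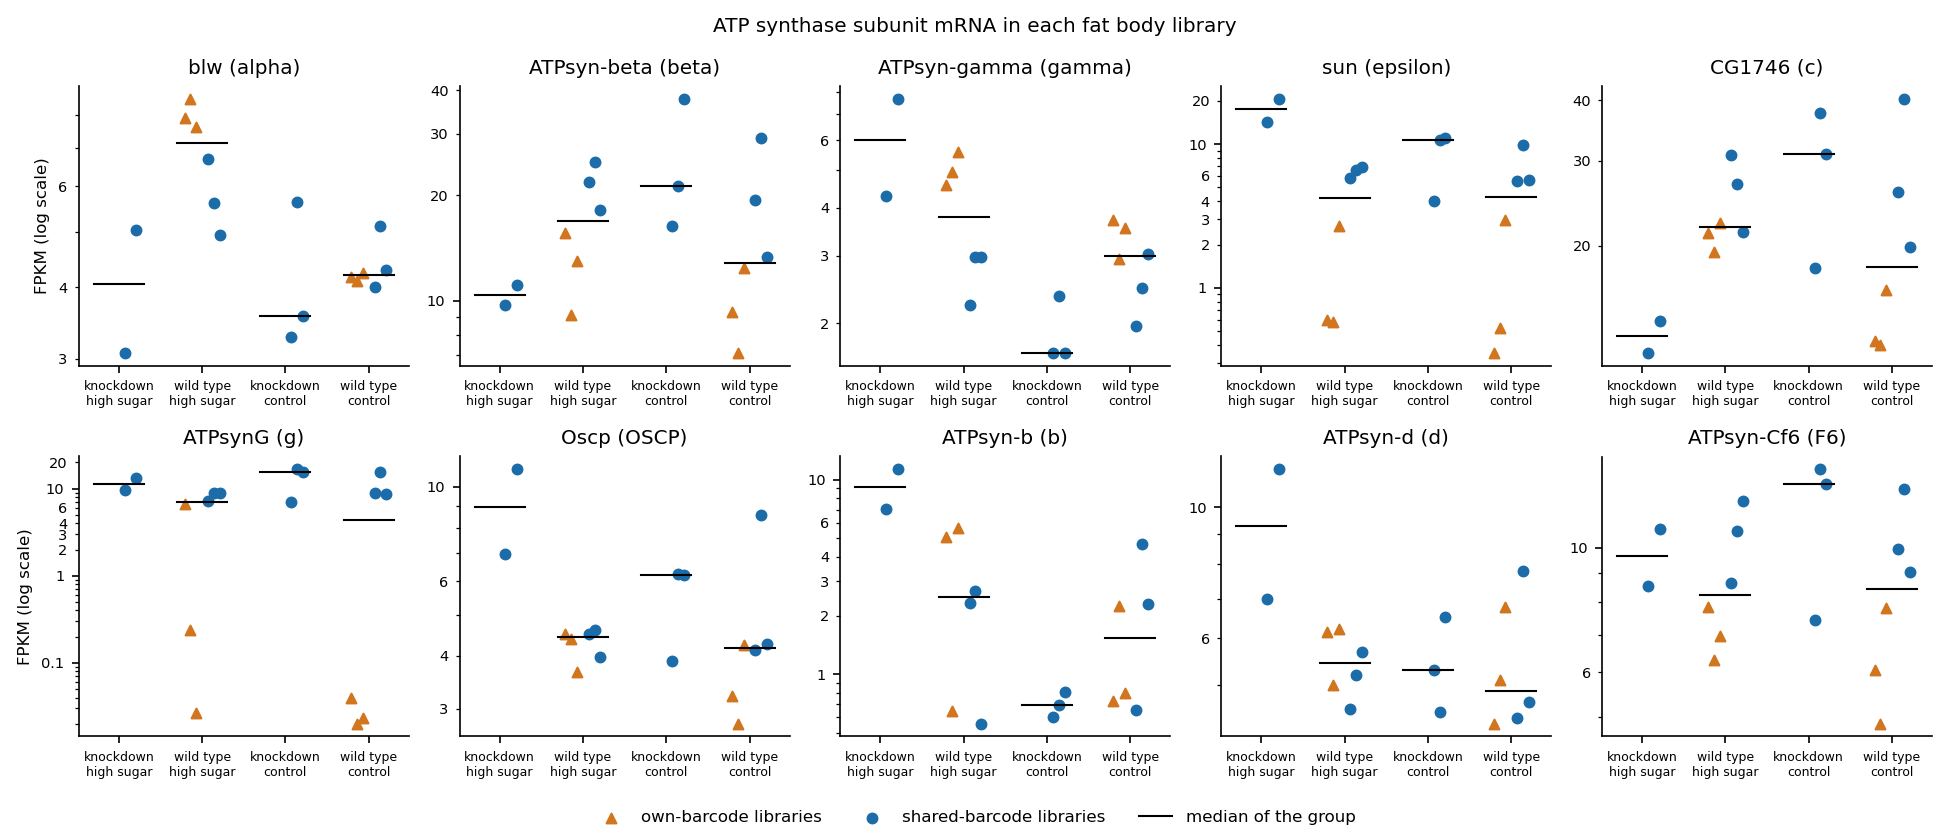
Value of each of the 10 subunit genes in every library (FPKM, log scale), in the knockdown on high sugar, wild type on high sugar, the knockdown on control food and wild type on control food. Triangles are own-barcode libraries, circles shared-barcode libraries and bars group medians. In the knockdown on high sugar CG1746 lies at 12 and 14 FPKM, below every wild-type library on high sugar, and sun at 14.2 and 20.7 FPKM, above each of them.

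The knockdown on high sugar was the condition in which the subunits moved apart. Against wild type on high sugar, 5 of the 10 genes were called higher (gamma, epsilon, OSCP, b and d) and 3 lower (alpha, beta and c), while F6 and g were not called. The called genes that were higher are stalk subunits, central and peripheral, and those that were lower are both subunits of the catalytic hexamer and the ring subunit c. The same split goes with transcript length, 1439 bases or more for the lower genes and 1166 or less for the higher ones. In the values as deposited, a split by part and one by length therefore cannot be told apart. With the length trend removed, ATPsyn-gamma was the only stalk gene still called higher, and ATPsyn-Cf6 of the peripheral stalk was called lower at -0.69. The called stalk genes then went both ways. The test was limma on log2(FPKM + 1) with adjusted p under 0.05 over all 2383 genes, and it called 60.6% of all genes in this comparison (27.2% higher, 33.4% lower), so 8 of 10 called is a share of a very broad difference. The median log2 change was 0.36 over the 10 genes and -0.08 over all tested genes. With each library scaled by its median ratio, the median of all genes moved to 0.23 and the split of all calls to 922 higher and 607 lower, against 648 higher and 795 lower as deposited. Under that scaling 5 subunit genes were called higher and 0 lower, and 64.4% of all tested genes were called. Without the barcode term 5 genes were called, 4 higher and 1 lower (blw), where 50.1% of all tested genes were called. ATPsyn-beta (-0.60, limma adjusted p = 0.27), CG1746 (-0.81, 0.078) and ATPsyn-gamma (0.52, 0.12) were then not called.

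In the catalytic head, ATPsyn-beta, which carries the catalytic sites, had 9.69 and 11.1 FPKM in the knockdown on high sugar. In wild type on high sugar it ran from 9.10 over a median of 16.9 to 25.0 FPKM. The knockdown values overlapped own-barcode wild-type libraries and lay below the 3 shared-barcode ones, which began at 18.2 FPKM. The log2 change was -1.04 ± 0.33 (SE; limma adjusted p = 0.014). The alpha subunit gene blw had 3.07 and 5.03 FPKM in the knockdown on high sugar, against a low of 4.93, a median of 7.16 and a high of 8.54 FPKM in wild type on high sugar. Replicate 1 of the knockdown was under the lowest wild-type value and replicate 2 just inside the wild-type range. The log2 change of blw was -0.56 ± 0.21 (limma adjusted p = 0.033), and within the shared-barcode libraries alone it was -0.44 with adjusted p = 0.13.

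In the membrane part, subunit c (CG1746), whose ring carries the protons, had 12 and 14 FPKM in the knockdown on high sugar. In wild type on high sugar its lowest value was 19.4 FPKM, its median 21.9 and its highest 30.8 FPKM. The groups did not overlap, and CG1746 fell by 1.12 ± 0.31 on the log2 scale (limma adjusted p = 0.0053). How many of all tested genes are separated in this way between these groups was not counted, which holds for the stalk genes below too. The gene for subunit g, ATPsynG, had 9.56 and 13.3 FPKM in the knockdown, above a wild-type range of 0.0264 to 8.84 FPKM with a median of 6.95 FPKM. Its log2 change after the barcode term was 0.06 ± 0.65 (limma adjusted p = 0.94), since own-barcode wild-type libraries held values near 0 that the shared-barcode libraries, at 7.3 FPKM or more, did not.

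In the central stalk, sun, the epsilon subunit at the foot of the shaft, had 14.2 and 20.7 FPKM in the knockdown on high sugar. In wild type on high sugar it ran from 0.575 over a median of 4.23 to 6.96 FPKM, so the groups did not overlap. The log2 change of sun was 1.26 ± 0.46 (limma adjusted p = 0.029). ATPsyn-gamma, the shaft that turns inside the head, had 4.30 and 7.69 FPKM in the knockdown and a lowest value of 2.23, a median of 3.79 and a highest value of 5.58 FPKM in wild type. One knockdown library lay inside the wild-type range, and both lay above the 3 shared-barcode wild-type libraries, which ended at 2.98 FPKM. ATPsyn-gamma rose by 0.78 ± 0.20 (limma adjusted p = 0.0036).

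In the peripheral stalk, 3 of 4 genes were higher. Oscp, which ties the stalk to the top of the head, had 6.94 and 11 FPKM in the knockdown on high sugar and between 3.66 and 4.59 FPKM, with a median of 4.43, in wild type. No wild-type library reached the lower knockdown value, and Oscp rose by 0.74 ± 0.27 (limma adjusted p = 0.027). ATPsyn-b, the long arm of the stalk, had 7.06 and 11.3 FPKM in the knockdown, against a low of 0.557, a median of 2.5 and a high of 5.62 FPKM in wild type. The groups did not overlap, a separation not counted over all tested genes. ATPsyn-b had the largest change of the 10, 1.61 ± 0.60 (limma adjusted p = 0.03). With a pseudocount of 0.1 in place of 1, ATPsyn-b (2.07, limma adjusted p = 0.064) and sun (1.33, adjusted p = 0.12) were not called. ATPsyn-d, another component of the arm, had 7.00 and 11.6 FPKM in the knockdown and 4.56 to 6.21 FPKM, with a median of 5.44, in wild type, a log2 change of 0.67 ± 0.23 (limma adjusted p = 0.022). ATPsyn-Cf6, which packs against OSCP and b, had 8.53 and 10.8 FPKM in the knockdown, inside a wild-type range of 6.30 to 12.1 FPKM with a median of 8.24, and its log2 change was -0.14 ± 0.23 (adjusted p = 0.61).

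**Figure D2:**
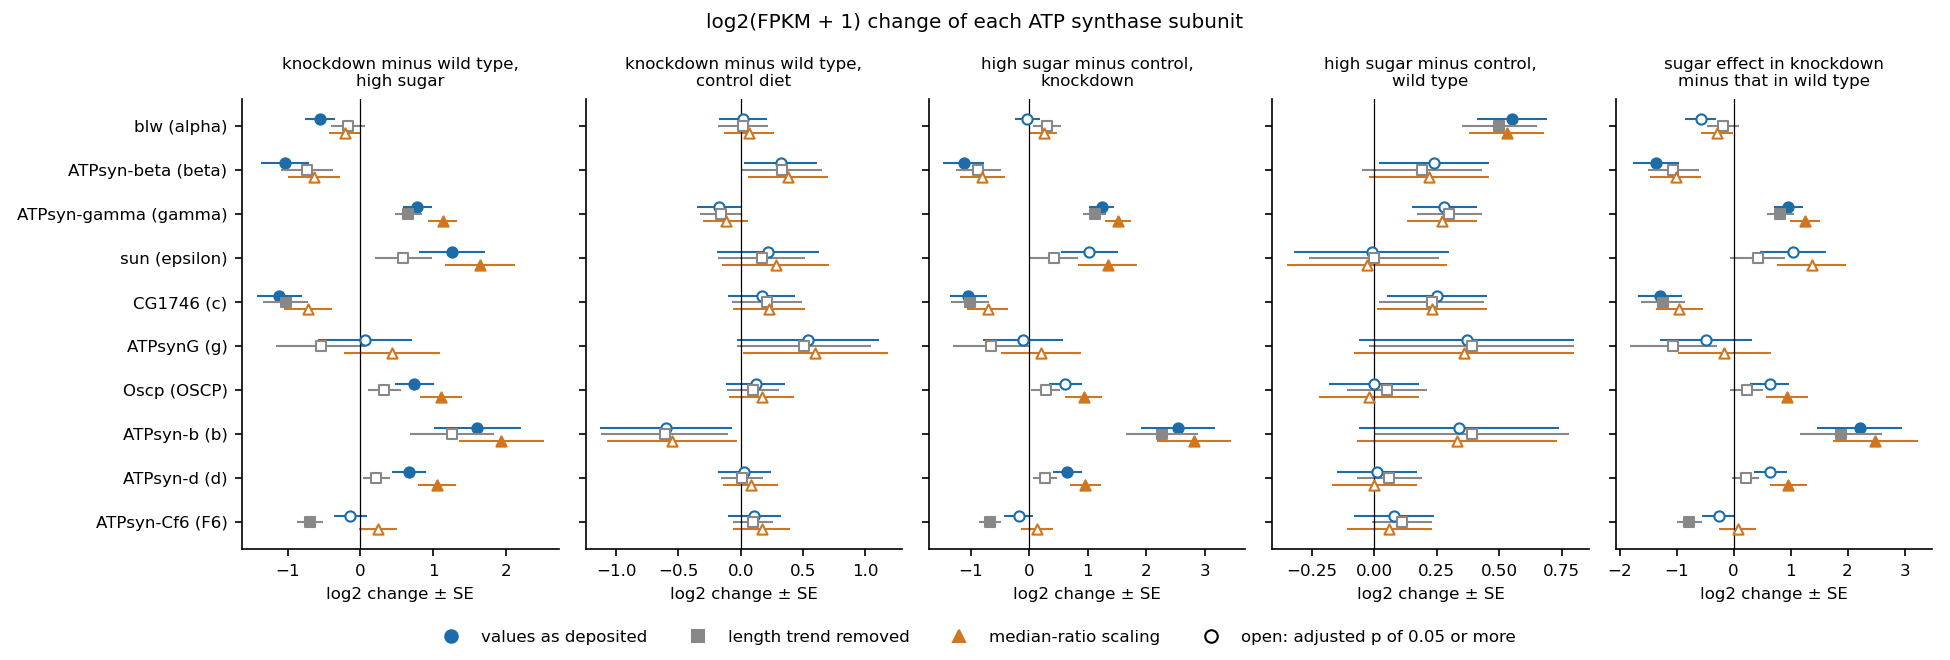
Log2 change with its standard error for each of the 10 subunit genes in the 4 pairwise comparisons and the interaction, fitted by limma on values as deposited (circles), with each library's length trend removed (squares) and with median-ratio scaling (triangles); filled points have adjusted p under 0.05, and each panel has its own scale. In the knockdown against wild type on high sugar, as deposited, ATPsyn-b is farthest up at 1.61 and CG1746 farthest down at -1.12, and no gene is called in the knockdown on control food.

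The calls were repeated without 1 library at a time. Leaving out 1 of the 2 knockdown libraries on high sugar leaves that group a single library, whose spread is then assumed to be that of the other groups. Without replicate 1 of the knockdown on high sugar, 3 genes were called, all higher (ATPsyn-gamma, ATPsyn-d and Oscp). Without replicate 2 of that group, 3 genes were called, all lower (blw, ATPsyn-beta and CG1746). Replicate 2 had the higher value of all 10 genes, and the 10 genes summed to 82.3 FPKM in replicate 1 and 116.0 FPKM in replicate 2. Without replicate 1 of wild type on high sugar, 4 genes were called, 2 higher (ATPsyn-gamma and ATPsyn-b) and 2 lower (ATPsyn-beta and CG1746). Each of the 8 called genes kept its sign in these 3 fits. The shares of all tested genes called in the same fits are not given here. Whether the calls shift in a way particular to the subunits was therefore not tested.

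Transcript length moved with the direction of change. The 3 genes that fell have median transcript lengths of 2252 (blw), 2026 (ATPsyn-beta) and 1439 bases (CG1746), and the 5 that rose have 1166 (ATPsyn-gamma), 918 (ATPsyn-b), 802 (Oscp), 734 (ATPsyn-d) and 425 bases (sun). The genes that did not pass the test, ATPsynG (497 bases, 0.06) and ATPsyn-Cf6 (586 bases, -0.14), are shorter than 4 of the 5 that rose. The knockdown libraries on high sugar were those with the steepest slopes against length. With each library's own trend with length removed, 3 of 10 subunit genes and 53.7% of all tested genes were called (25.0% higher, 28.7% lower). ATPsyn-gamma stayed higher at 0.66 ± 0.19 (limma adjusted p = 0.0097), CG1746 stayed lower at -1.03 ± 0.31 (adjusted p = 0.012), and ATPsyn-Cf6, uncalled before, was lower at -0.69 ± 0.18 (adjusted p = 0.0043). ATPsyn-beta was then at -0.74 (adjusted p = 0.1), ATPsyn-b at 1.26 (0.079), sun at 0.59 (0.22), Oscp at 0.33 (0.25), ATPsyn-d at 0.22 (0.36) and blw at -0.17 (0.54), each with the sign it had before and none past the threshold. The median of the 10 genes was 0.02 with the trend removed, against 0.36 as deposited.

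**Figure D3:**
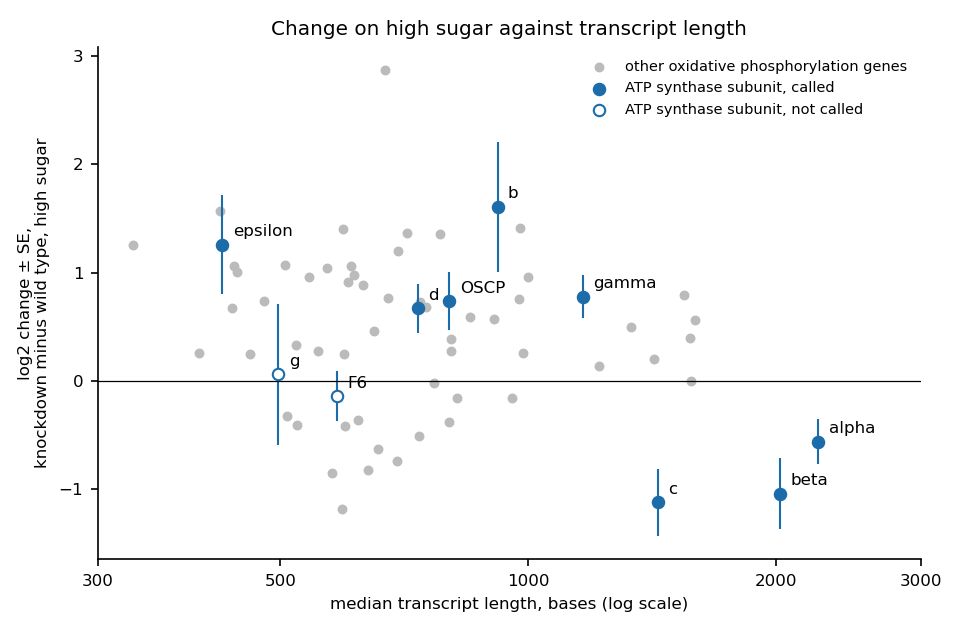
Log2 change with its standard error of each subunit gene in the knockdown against wild type on high sugar, plotted against median transcript length (bases, log scale); filled points have adjusted p under 0.05 and grey points are the other tested oxidative phosphorylation genes. The 3 called falls lie at 1439 bases or more and the 5 called rises at 1166 bases or less.

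Markers of fat body and of several other tissues set those libraries apart from wild type on high sugar. The 7 fat body markers (larval serum proteins, fat body proteins and the lipophorin apolpp) summed to 2368.7 to 2726.6 FPKM in the knockdown on high sugar and to 6902.6 to 12235.9 FPKM in wild type on high sugar, and 6 of 7 were lower. The salivary glue genes summed to 6544.6 to 6749.2 FPKM in the knockdown, against 5.41 to 5876.0 FPKM in wild type, and 0 of 6 were higher and 1 lower. The 7 midgut markers summed to 206.0 to 251.0 FPKM in the knockdown and 0.812 to 118.0 FPKM in wild type, and 5 of 6 tested were higher. Hemocyte markers summed to 192.0 to 444.0 FPKM in the knockdown, against 20.7 to 59.4 FPKM in wild type, and 1 of 2 tested was higher. Muscle markers summed to 11.5 to 18.5 FPKM in the knockdown, against 2.7 to 7.0 FPKM in wild type, and 2 of 3 tested were higher. No hemocyte, muscle, glue, midgut or cuticle marker was at 0 in either knockdown library on high sugar. In wild type on high sugar, Hml, nimC1 and eater (hemocyte), Mlc1 and Tm2 (muscle), Sgs1 and all 4 cuticle genes were at 0 in some libraries, and the midgut gene Jon99Ci in all 6. Jon99Ci was also at 0 in all 3 knockdown libraries on control food. The 4 larval cuticle genes summed to 81.7 to 164.0 FPKM in the knockdown and 0 to 61.6 FPKM in wild type, and 2 of 4 were higher. The Malpighian tubule marker, 6.47 to 8.35 FPKM in the knockdown and 2.22 to 13.1 FPKM in wild type, was not called. In this comparison 27.2% of all tested genes were called higher and 33.4% lower. Wild type on control food reached into the high-sugar knockdown ranges, up to 316.0 FPKM for hemocyte, 15.8 for muscle and 90.2 for cuticle markers. Hemocyte markers in the knockdown on control food summed to 102.0 to 302.0 FPKM. The part of other tissues in the subunit changes was not tested.

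Ratios between subunits within a library do not depend on how that library was scaled, but carry its slope with length. Oscp over blw was 2.26 and 2.18 in the knockdown on high sugar, and 0.482 to 0.818 in wild type on high sugar. On control food it was 1.11 to 1.74 in the knockdown and 0.673 to 1.67 in wild type, so no other library reached the values of the knockdown on high sugar. Beta over alpha (ATPsyn-beta over blw) was 3.16 and 2.21 in the knockdown on high sugar and 1.07 to 4.46 in wild type on high sugar, which overlapped. The ratio of c over alpha was 3.9 and 2.78 in the knockdown and 2.27 to 4.78 in wild type on high sugar, also overlapping. The 10 genes together made up 0.147% and 0.187% of all FPKM in the knockdown on high sugar, within the 0.146% to 0.212% of wild type on high sugar. In FPKM the 10 genes summed to 82.3 and 116.0 in the knockdown and to 59.1 to 99.0 in wild type on high sugar, so the sums overlapped.

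The sugar comparison within the knockdown rests on the same 2 libraries on high sugar. High sugar against control food in the knockdown called 3 genes higher and 2 lower of 10, where 60.3% of all tested genes were called (29.2% higher, 31.1% lower). ATPsyn-b had 7.06 and 11.3 FPKM on high sugar and 0.6, 0.696 and 0.81 FPKM on control food, a log2 change of 2.55 ± 0.63 (limma adjusted p = 0.003). ATPsyn-gamma had 4.30 and 7.69 FPKM on high sugar and 1.67, 2.35 and 1.67 FPKM on control food, a log2 change of 1.24 ± 0.21 (limma adjusted p = 0.00016). For both genes the diets did not overlap. ATPsyn-d had 7.00 and 11.6 FPKM on high sugar and 5.3, 4.5 and 6.51 FPKM on control food, a log2 change of 0.65 ± 0.25 (limma adjusted p = 0.031).

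The 2 genes that fell with sugar in the knockdown were those of the catalytic and the ring subunit. ATPsyn-beta had 9.69 and 11.1 FPKM on high sugar and 16.4, 21.3 and 37.8 FPKM on control food, a log2 change of -1.12 ± 0.35 (limma adjusted p = 0.013). CG1746 had 12 and 14 FPKM on high sugar and 18, 37.7 and 31.0 FPKM on control food, a log2 change of -1.04 ± 0.32 (limma adjusted p = 0.012). Neither gene's diets overlapped. Of the 5 uncalled genes, sun (1.03, adjusted p = 0.082) and Oscp (0.62, adjusted p = 0.071) lay nearest to the threshold. The diets did not overlap for the uncalled sun and Oscp either, nor for ATPsyn-d. How many of all tested genes are separated in this way was not counted. With the length trend removed, ATPsyn-gamma (1.12) and ATPsyn-b (2.27) were called higher and CG1746 (-1.01) and ATPsyn-Cf6 (-0.67) lower, where 55.9% of all tested genes were called. With median-ratio scaling 5 genes were called higher and 0 lower, where 63.9% of all tested genes were called, 922 higher and 595 lower against 696 higher and 740 lower as deposited. Without replicate 2 of the knockdown on control food, 3 genes were called, ATPsyn-gamma and ATPsyn-b higher and ATPsyn-beta lower.

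The interaction asked whether the sugar effect differed between genotypes. It was called for 4 of 10 genes, 2 higher and 2 lower, where 51.8% of all tested genes were called (23.5% higher, 28.3% lower). The sugar effect in the knockdown exceeded that in wild type by 2.21 ± 0.74 for ATPsyn-b (limma adjusted p = 0.023) and by 0.96 ± 0.25 for ATPsyn-gamma (adjusted p = 0.0053). It was below that in wild type by a log2 difference of -1.36 ± 0.41 for ATPsyn-beta (limma adjusted p = 0.013) and -1.29 ± 0.38 for CG1746 (adjusted p = 0.011). With the length trend removed, ATPsyn-b, ATPsyn-gamma and CG1746 were again called in the same directions, and ATPsyn-Cf6 was added at -0.78 (adjusted p = 0.0094), while ATPsyn-beta was at -1.06 (adjusted p = 0.066), where 46.3% of all tested genes were called. With median-ratio scaling 4 genes were called higher, ATPsyn-b, ATPsyn-gamma, ATPsyn-d and Oscp, and 0 lower, with ATPsyn-beta at -1.02 (limma adjusted p = 0.065) and CG1746 at -0.95 (adjusted p = 0.06). That scaling called 56.7% of all tested genes, 805 higher and 541 lower, against 561 higher and 674 lower as deposited. Without replicate 1 of the knockdown on high sugar no lower call was made, and without replicate 2 of that group no higher call was made, with the spread of the single library left again taken from the other groups.

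In the knockdown on control food against wild type on control food, 0 of 10 genes were called by limma, where 5.62% of all tested genes were called. At an unadjusted p under 0.05 the counts were 0 of 10 and 19.2% of all tested genes. The log2 changes ran from -0.60 ± 0.53 for ATPsyn-b to 0.54 ± 0.57 for ATPsynG, with SEs of 0.18 to 0.57. ATPsyn-beta had 16.4, 21.3 and 37.8 FPKM in the knockdown, and a low of 7.08, a median of 12.9 and a high of 29.1 FPKM in wild type. CG1746 had 18, 37.7 and 31.0 FPKM in the knockdown, against a low of 12.5, a median of 18.1 and a high of 40.3 FPKM in wild type. The groups overlapped for both genes. In the knockdown on control food, unlike on high sugar, the fat body markers (7799.8 to 9172.9 FPKM) lay inside the range of wild type on the same food (5269.0 to 9572.3 FPKM).

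In wild type, high sugar against control food called 1 gene of 10, the alpha subunit gene blw, where 15.5% of all tested genes were called (9.44% higher, 6.08% lower). It had a low of 4.93, a median of 7.16 and a high of 8.54 FPKM on high sugar, against a low of 4.00, a median of 4.2 and a high of 5.11 FPKM on control food. Only the highest control library, replicate 2, reached into the high sugar range, and blw rose by 0.55 ± 0.14 (limma adjusted p = 0.016). The other 9 genes had log2 changes of -0.01 to 0.37 and none passed the threshold. ATPsyn-gamma came nearest, at 0.28 ± 0.13 (limma adjusted p = 0.17).

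The sugar effect on blw was also fitted within each barcode set. Within the own-barcode libraries it had 7.90, 8.54 and 7.61 FPKM on high sugar and 4.17, 4.11 and 4.23 FPKM on control food, a log2 change of 0.80 ± 0.18 (limma adjusted p = 0.0033), where 33.4% of all tested genes were called. Within the shared-barcode libraries it had 6.70, 5.62 and 4.93 FPKM on high sugar and 4.00, 5.11 and 4.28 FPKM on control food, a log2 change of 0.30 ± 0.18 (limma adjusted p = 0.39). There 0 of 10 genes and 6.38% of all tested genes were called, and 0 of 10 and 19.6% had an unadjusted p under 0.05. The groups were apart in the own-barcode set and overlapped in the shared-barcode set. The difference between the sets, 0.50 ± 0.25, was not called for blw (limma adjusted p = 0.17) or for any other of the 10 genes, where 19.8% of all tested genes were called. At an unadjusted p under 0.05 the counts were 0 of 10 and 35.1% of all tested genes.

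**Figure D4:**
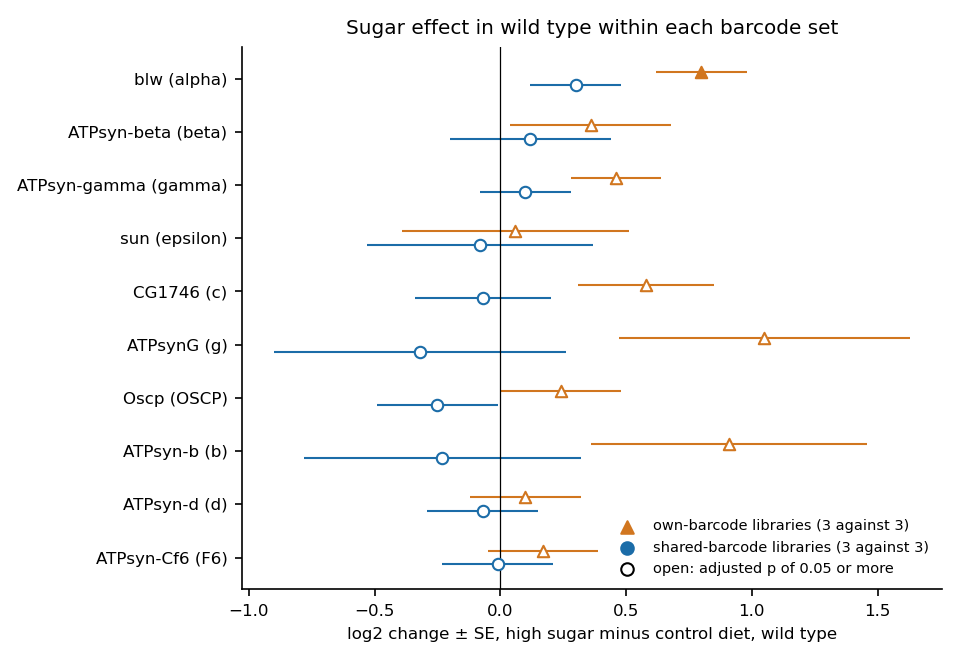
Log2 change with its standard error of each subunit gene, high sugar minus control food in wild type, fitted within the own-barcode libraries and within the shared-barcode libraries. Only blw in the own-barcode libraries, at 0.80, has adjusted p under 0.05, and in the shared-barcode libraries it is at 0.30.

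Several subunit genes had levels that went with the barcode set, a difference looked at after the values were seen. With diet held in the model, 5 of the 10 genes were lower and 1 higher in the own-barcode libraries than in the shared-barcode libraries of wild type, where 54.0% of all tested genes were called (42.0% lower). The log2 differences were -2.81 ± 0.43 for ATPsynG (limma adjusted p = 8.5e-05), -1.89 ± 0.31 for sun (0.00014), -0.88 ± 0.22 for ATPsyn-beta (0.004), -0.63 ± 0.20 for CG1746 (0.017) and -0.59 ± 0.16 for ATPsyn-Cf6 (0.0052). ATPsyn-gamma was higher, by 0.52 ± 0.13 (limma adjusted p = 0.0045). With the length trend removed 4 genes were lower and 2 higher, where 50.8% of all tested genes were called. ATPsynG (-2.22, limma adjusted p = 0.00041) and sun (-1.17, 0.0019) remained called, ATPsyn-Cf6 did not (-0.14, 0.33) and ATPsyn-d was added (0.33, 0.047). With median-ratio scaling CG1746 was not called (-0.48, limma adjusted p = 0.078), where 52.0% of all tested genes were called, 422 higher and 814 lower against 285 higher and 1002 lower as deposited. The gene for subunit g was the extreme case. On control food ATPsynG had 0.0395, 0.0201 and 0.0233 FPKM in the own-barcode libraries and 8.89, 15.4 and 8.65 FPKM in the shared-barcode libraries, and on high sugar it had 6.60, 0.240 and 0.0264 FPKM in the own-barcode libraries and 7.30, 8.84 and 8.84 FPKM in the shared-barcode libraries. Its transcript is among the shortest of the 10 (497 bases), as is that of sun (425 bases).

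ATPsyn-b split the libraries in another way. It lay between 0.557 and 0.81 FPKM in 8 libraries and between 2.25 and 11.3 FPKM in 9, with no library between. The low libraries were all 3 of the knockdown on control food, 3 of wild type on control food (replicates 1, 4 and 6) and 2 of wild type on high sugar (replicates 3 and 5), and neither knockdown library on high sugar was among them. Both barcode sets held libraries of each kind. The SE of 0.60 beside its change of 1.61 carries that spread.

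The other subunits and carriers of the same step were read from lists of the pathway. Of 7 further genes, listed as other subunits and inhibitor factors, 6 were higher and 0 lower in the knockdown on high sugar. The comparison was with wild type on high sugar, where 27.2% of all tested genes were called higher and 33.4% lower. The median log2 change of the 7 was 1.04. The delta subunit of the central stalk, l(1)G0230, had 11.2 and 18.2 FPKM in the knockdown and 3.64 to 4.78 FPKM in wild type, a log2 change of 1.41 ± 0.28 (limma adjusted p = 0.00057). The mitochondrially encoded ATPase6, the Fo subunit that lets protons onto the ring, had 157.0 and 312.0 FPKM in the knockdown and 24.3 to 81.6 FPKM in wild type, a log2 change of 1.94 ± 0.41 (limma adjusted p = 0.00088). ATPase8, its mitochondrially encoded partner, whose reading frame overlaps that of ATPase6, rose by 1.34 ± 0.22 (limma adjusted p = 0.00013), and CG13551, listed here with the enzyme's inhibitor factor, by 0.98 ± 0.22 (adjusted p = 0.0014). The remaining called genes were CG4692 (subunit f, 1.04) and CG34423 (0.67), and CG3321 (subunit e) was at -0.42 (adjusted p = 0.34). With the length trend removed, 1 of the 5 that have a length was higher and 1 lower, beside 25.0% and 28.7% of all tested genes. On control food, and with sugar in wild type, 0 of these 7 genes were called, beside 5.62% and 15.5% of all tested genes.

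The substrates of the enzyme reach it through carriers. Porin, the channel of the outer membrane, had 11.7 and 12 FPKM in the knockdown on high sugar and 4.18 to 5.04 FPKM in wild type on high sugar, a log2 change of 1.24 ± 0.15 (limma adjusted p = 7.1e-06). The phosphate carrier Mpcp had 4.16 and 6.54 FPKM in the knockdown and 7.18 to 10.6 FPKM in wild type, a log2 change of -0.60 ± 0.19 (limma adjusted p = 0.014). It was also lower in the knockdown on control food, by a log2 change of -0.80 (limma adjusted p = 0.011). Of all tested genes, 60.6% were called on high sugar and 5.62% on control food. The carriers' changes with the length trend removed or with median-ratio scaling are not given here. The ADP/ATP carrier sesB was at -0.13 ± 0.28 (limma adjusted p = 0.71) in the knockdown on high sugar, where its values of 12.8 and 15.4 FPKM lay inside the wild-type range of 8.28 to 15.9 FPKM. The second ADP/ATP carrier Ant2 averaged 0.0465 FPKM and was not tested, and the paralogs CG5389, CG7211 and CG31477, which resemble subunits beta, g and epsilon, were listed at 0 in every library.

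Set beside the other complexes of the respiratory chain in the same comparison, complex I had 16 of 31 genes higher and 1 lower (median log2 change 0.57). Over all tested genes 27.2% were called higher and 33.4% lower. CG40002 (ND-AGGG, a small membrane subunit) had 26.6 and 26.9 FPKM in the knockdown on high sugar and 2.81 to 9.55 FPKM in wild type, a log2 change of 1.40. Complex III with cytochrome c had 5 of 9 higher and 2 lower (median 0.56), with the Rieske protein RFeSP at 0.96. Complex IV had 1 of 9 higher and 1 lower (median 0.26), with the higher one, CoVa, at 2.87, and complex II had 1 of 2 higher, SdhC at 1.36. With the length trend removed the counts were 9 higher and 8 lower for complex I, 3 and 2 for complex III, and 1 and 3 for complex IV, beside 25.0% higher and 28.7% lower over all tested genes. The vacuolar ATPase, a rotary proton pump of related build that runs the other way, had 4 of 15 higher and 7 lower (median -0.30). Over all tested genes 27.2% were higher and 33.4% lower. Vha55 (subunit B of its head) was at -1.03 and the ring subunit Vha16 at -1.29, both called lower, while Vha36, a stalk subunit, was called higher at 2.02. Other called genes of this list are not named, and its counts with the length trend removed are not given. Whether its calls go by part or by length was not tested.

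**Figure D5:**
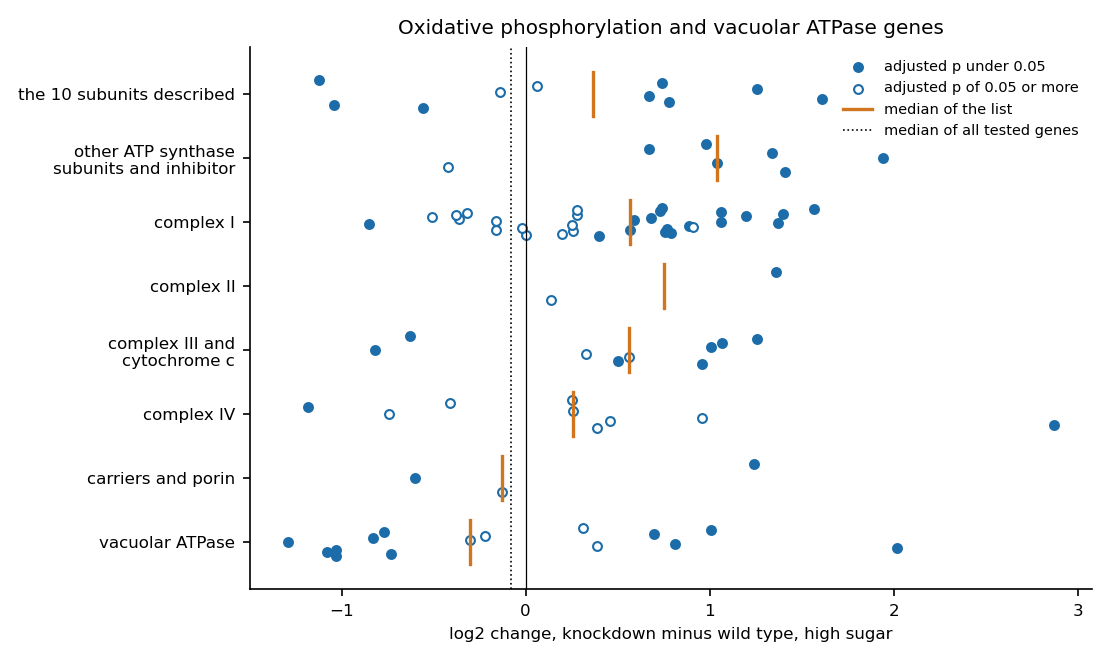
Log2 change of every tested gene of each list in the knockdown against wild type on high sugar (1 point a gene; filled, adjusted p under 0.05), with the list's median as a bar and the median of all tested genes, -0.08, as a dotted line. The 10 subunit genes range from -1.12 to 1.61, and complex I has 16 genes called higher and 1 lower.

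The genes whose pattern was most like the average of the 10 subunits were ranked by Pearson correlation over the 17 libraries among 2373 other tested genes, as a description. They were Dbi (now Acbp2, r = 0.888), CG11077 (0.874), CG6084 (0.873), sesB (0.868) and CG2862 (0.857). The points share libraries, scaling and the length slopes given above. Dbi is named for an acyl-CoA binding protein, and sesB is the ADP/ATP carrier.

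Read assignment leaves 3 of the genes less certain. In the current annotation ATPsyn-beta overlaps CG11076 and Oscp overlaps CG14864 on the opposite strand, and CG1746 contains a microRNA gene and a gene for RNase P RNA. The sources used here do not state whether the libraries kept the strand, so reads of overlapping genes cannot be told apart.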

How the data were processed

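The authors deposited 1 matrix with a column per library. The submitters' processing notes list TopHat 1.3.2, Bowtie 0.12.7, Cufflinks 1.1.0 and build dm3. Annotation and settings are not given in the sources used here. The deposited values carry no unit in the header and were taken as FPKM from those tools, though column totals of 29778.6 to 62263.5 leave a further scaling possible, and depth is unknown. Whether values times transcript length fall in steps of whole reads was not tested. Without a known depth no count test was run.

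The fit used log2(FPKM + 1), a scale on which low genes change too little. The 2383 genes averaging 1 FPKM or more entered limma 3.58.1 (R 4.3.3), as 4 groups plus an additive barcode set, with trended and robust empirical Bayes. Tests were 2-sided, with Benjamini-Hochberg adjustment over the 2383 genes in each comparison and a threshold of 0.05. A second fit had a mean for each group and barcode set. The procedure was also run on simulated data without a barcode effect, a length slope or a broad change. That run therefore does not test how these features affect the calls. Errors beside log2 changes are SEs of the fit and beside FPKM are SDs over libraries. Fitted changes can differ from ratios of group means, because the barcode term is estimated in wild type. The comparisons share libraries: both knockdown comparisons on high sugar use the same 2, and the interaction reuses all groups.

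The alternatives were a pseudocount of 0.1, a minimum mean of 5 FPKM, no filter, no barcode term, the shared-barcode libraries alone, median-ratio scaling, a loess removal (span 0.5) of each library's trend with length, a replicate block, and leaving out each library. Current symbols (13054 rows matched) and transcript lengths (96.4% of tested genes) came from a newer annotation, BDGP6, so no coordinates are given. The 10 genes and all lists (146 of 148 listed genes in the matrix) were chosen with earlier results of these data known. All 10 genes are named, with up to 4 genes a list by smallest p, the knockdown target and the 5 genes most like the average; CG4692, CG34423, CG3321, Ant2 and the 3 paralogs were named after their values were seen.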

Additional observations from a re-analysis of the deposited data

Results flagged for a closer look

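In wild type on control food, replicate 2 stood apart for 2 genes. It had 5.11 FPKM of blw, and its gap to the nearest library was 0.745 of the group's range. It had 8.56 FPKM of Oscp, with a gap of 0.74 of the range. In all, 20 sets of 6 libraries were examined this way, and chance puts about 1 in 20 past the limit. The same library had the highest sum over the 10 genes, 136.0 FPKM, of the 17.

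The sugar effect differed between the knockdown and wild type for 4 of the 10 subunit genes by the interaction test. The same test called 51.8% of all tested genes, so 4 of 10 is no larger a share than that of all genes. The log2 difference (knockdown minus wild type) was 2.21 for ATPsyn-b, 0.96 for ATPsyn-gamma, -1.29 for CG1746 and -1.36 for ATPsyn-beta. The 2 knockdown libraries on high sugar enter all 4. With median-ratio scaling the 2 negative differences were not called, at -1.02 for ATPsyn-beta (limma adjusted p = 0.065) and -0.95 for CG1746 (adjusted p = 0.06).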

How the results depend on the processing

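Of 1894 recomputed values of the 10 genes over 8 comparisons, no called value reversed; 58 calls were lost, 20 were gained and 88 uncalled values changed sign. In the knockdown against wild type on high sugar (8 called), 5 were called without the barcode term, 5 with median-ratio scaling, 6 with a pseudocount of 0.1 and 3 with the length trend removed; leaving out single libraries gave 3 to 8. With sugar in the knockdown (5 called), a minimum mean of 5 FPKM left 3 of the 8 genes then tested, and leaving out libraries gave 3 to 6. The interaction (4 called) gave 2 with that filter, 2 without the barcode term and 2 in the shared-barcode libraries alone, and 3 to 5 when libraries were left out. Sugar in wild type called 1 gene under each alternative and with any library left out, except in the shared-barcode libraries alone (0). In the own-barcode libraries leaving out libraries gave 1 to 2: ATPsyn-b was added without replicate 5 of wild type on high sugar, and ATPsyn-gamma without either knockdown library on high sugar. The cause was not tested, beyond the fewer genes or libraries that some settings leave.

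Same-numbered libraries deviated together no more than others (r from -0.24 to 0.223 over 18 pairs, against -0.392 to 0.358 over 36 differently numbered pairs). Each deviation was taken from the mean of its group and barcode set, which ties these r values to each other. They therefore cannot decide whether the numbers pair samples. With the replicate block in place of the barcode term, 7 genes were called in the knockdown against wild type on high sugar (4 higher, 3 lower). The block called 6 with sugar in the knockdown, 4 in the interaction, 1 for sugar in wild type and 0 for the knockdown on control food. In the same order, 56.4%, 56.3%, 46.9%, 10.4% and 3.82% of all tested genes were called. ATPsyn-b was not called under the block in the knockdown against wild type on high sugar (limma adjusted p = 0.069) or in the interaction (0.05 after rounding).

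Counts over all genes depend on how many genes were tested, 9696 with no filter, 2383 as reported and 754 at a minimum mean of 5 FPKM. In the knockdown on high sugar the called shares were 41.1%, 60.6% and 62.6%. Sugar in wild type (370) gave 142 at a minimum mean of 5 FPKM, 167 without the barcode term and 78 in the shared-barcode libraries alone. The knockdown on control food (134) gave 242 with no filter, 70 at that minimum and 79 without replicate 3 of that group. The knockdown on high sugar (1443) gave 3982 with no filter and 472 at that minimum, sugar in the knockdown (1436) 3996 and 485, and the interaction (1235) 3068 and 413. Within sets, own-barcode libraries (797) gave 1495 and 324, the difference between sets (473) 840 and 243, and shared-barcode libraries (152) 83 at that minimum and 92 to 96 without replicate 1 or 3 of wild type on control food or replicate 2 of wild type on high sugar. Depth is unknown, and 2 libraries limit every value of the knockdown on high sugar.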
